A study of Mus musculus with 8 samples.

Results

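Astrocyte marker genes were followed across 8 arrays of mouse neurosphere cultures, clusters grown from neural stem cells, kept floating or adherent, with or without a working copy of Cbx3. The 10 genes were Gfap, S100b, Aqp4, Aldoc, Aldh1l1, Sparcl1, Mlc1, Gja1, Clu and Apoe. They were chosen as known markers of the cell type and found through the RefSeq accession of each probe, which gave 13 of 55681 probes and 10 of 20660 genes. Of the 10 genes, 8 were well above background on all 8 arrays, while Gfap and Aqp4 lay close to background. Against the WT arrays whose Cbx3 signal fitted their label, Cbx3-deficient neurospheres had more Aldoc, S100b and Apoe. The Cbx3-deficient side pooled 3 floating arrays with 1 adherent array, so it gives no result for adherent culture alone. Gfap was lower there, but it reached the test only because both of those WT arrays were above background. The calls of Aldoc, S100b and Apoe were lost with the cultures kept apart and with no filter on dim probes. With every array taken as labelled, no member passed the test.

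Astrocytes are the glial cells that take up transmitter, buffer potassium and water around synapses and vessels, and supply lipid and metabolites to neurons. In the developing forebrain they arise from radial glia and neural stem cells, which already express several of the same genes, among them those for the glutamate transporter Slc1a3 and the brain lipid carrier Apoe. Gfap, an intermediate filament gene, is switched on late, when cytokines acting through Stat3, together with Notch and bone morphogenetic signals, act on a promoter that is kept silent in early precursors by DNA methylation.

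There were 2 Cbx3-deficient adherent arrays (KO adherent), 3 Cbx3-deficient floating arrays (KO floating) and 3 wild-type floating arrays (WT floating); the titles mark the genotypes -/- and +/+. Cbx3 encodes HP1gamma, a reader of histone H3 methylation in heterochromatin, and the series title names histone methylation at neuronal genes as its subject. Per the labels, each sample was grown from the ganglionic eminence of a single embryonic brain at E14.5, quaternary neurospheres were used, and all cultures ran for 7 days with 20 ng/ml EGF and 20 ng/ml bFGF, growth factors that keep cells dividing, and heparin at 5 µg/ml. There was no WT adherent array, the adherent surface and the deleted part of Cbx3 are not described in the sources used here, and whether floating and adherent samples share an embryo is not stated. The p-values therefore measure the spread between such cultures. In bulk RNA, fewer cells of a type and less RNA per cell cannot be told apart.

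All values are log2 signals relative to the 75th percentile of the same array, so that 0 is the level below which 75% of the spots lie. The 75th percentile ranged from 616 to 865 intensity units, and 44.5% to 55.4% of spots were well above background. Cbx3 itself had -1.86, -2.76 and -1.75 on the arrays labelled KO floating 1, 2 and 3, and -2.03 and 5.91 on those labelled KO adherent 1 and 2. It had 5.83, -2.17 and 5.95 on those labelled WT floating 1, 2 and 3. The arrays with the labels WT floating 2 and KO adherent 2 thus lay at the level of the other genotype, as they did on the other Cbx3 probe. Comparisons are given with labels as given, and also without these 2 arrays. That 6-array comparison sets KO floating 1, 2 and 3 and KO adherent 1 (called the 4 KO arrays) against WT floating 1 and 3 (the 2 WT arrays), so it mixes both cultures on the KO side. The Y-linked genes Ddx3y and Eif2s3y were above background on KO floating 3 and WT floating 1 alone.

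The sequence just before the RefSeq start site is shown for the genes whose levels differed most clearly in the 6-array comparison, 1 start site each (GRCm38.p6, 250 bases, 5′ to 3′ on the strand of the gene). Windows were found for 7 of the 10 genes. Capitals mark TGGGAA or its reverse complement TTCCCA, the core bound by RBPJ, the DNA-binding partner of Notch.
Gfap, chr11:102897201-102897450, minus strand: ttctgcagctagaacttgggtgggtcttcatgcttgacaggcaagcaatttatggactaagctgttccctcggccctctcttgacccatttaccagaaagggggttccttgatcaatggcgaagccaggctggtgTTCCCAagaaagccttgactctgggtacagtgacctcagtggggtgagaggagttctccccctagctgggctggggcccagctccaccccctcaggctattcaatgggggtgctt
Aldoc, chr11:78322823-78323072, plus strand: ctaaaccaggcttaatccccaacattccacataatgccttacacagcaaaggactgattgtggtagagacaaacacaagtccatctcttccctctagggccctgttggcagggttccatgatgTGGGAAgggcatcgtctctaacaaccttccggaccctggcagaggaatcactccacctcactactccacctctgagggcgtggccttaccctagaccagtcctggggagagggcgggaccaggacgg
S100b, chr10:76253586-76253835, plus strand: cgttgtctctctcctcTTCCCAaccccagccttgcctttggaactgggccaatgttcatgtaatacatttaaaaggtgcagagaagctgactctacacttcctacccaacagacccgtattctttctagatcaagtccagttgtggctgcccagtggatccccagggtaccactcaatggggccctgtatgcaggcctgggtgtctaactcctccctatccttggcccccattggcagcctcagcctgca
Apoe, chr7:19699189-19699438, minus strand: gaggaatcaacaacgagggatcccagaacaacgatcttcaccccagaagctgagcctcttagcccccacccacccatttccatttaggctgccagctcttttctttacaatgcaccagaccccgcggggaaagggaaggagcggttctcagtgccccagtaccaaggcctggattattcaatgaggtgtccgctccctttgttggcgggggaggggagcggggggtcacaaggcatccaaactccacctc
One match lay in the Gfap window at position -115, in that of Aldoc at -127 and in that of S100b at -234, counted to the first base from the start site. The Apoe window had none, and the core occurs in 21.6% of 32817 mouse promoter windows searched on both strands. The STAT element TTCNNNGAA, present in 7.02% of the windows, was in none of these 4. A second start site of Aldoc, at chr11:78323948-78324197, held 2 of them and 1 core. Among genes whose windows are not shown, Aldh1l1 (at -150) and Mlc1 (at -172) held 1 core each, and Gja1 none. These genes did not pass in the 6-array comparison, so the core was not limited to genes that passed. Its part in the levels was not tested.

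**Figure D1:**
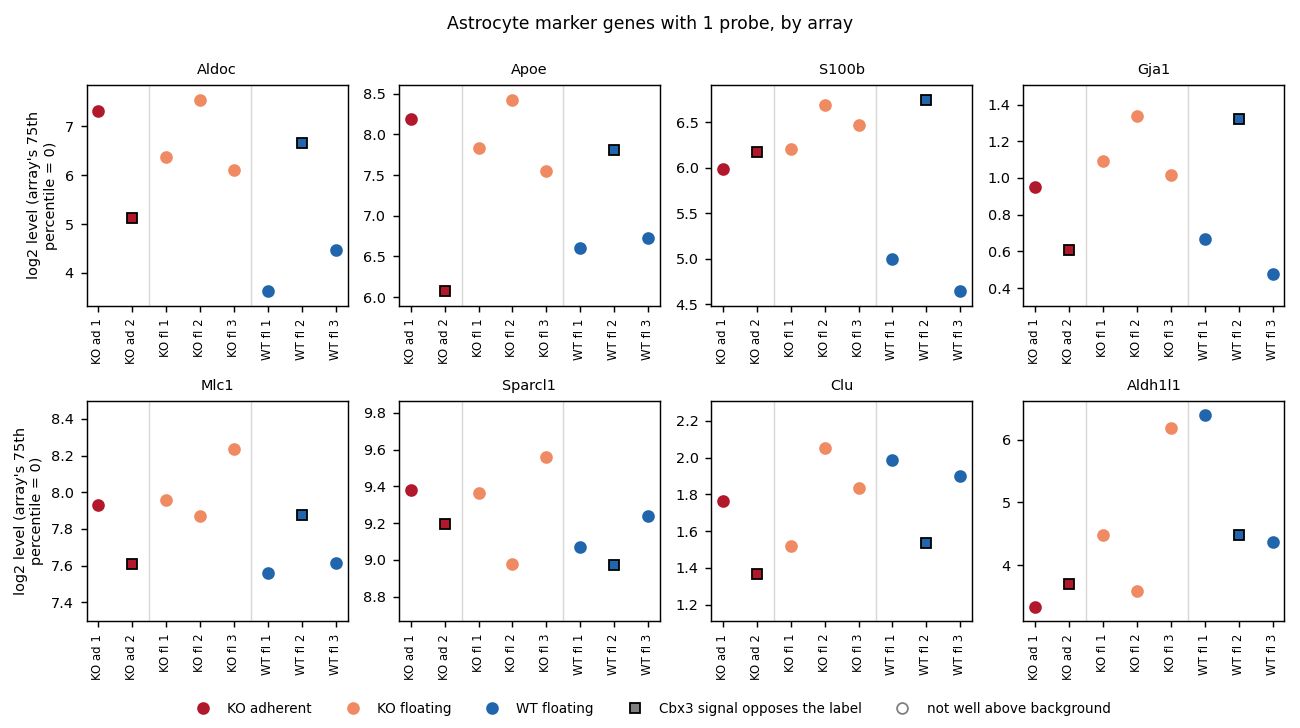
Log2 level of each member with 1 probe (vertical axis, 75th percentile of the array at 0) on each of the 8 arrays (horizontal axis). KO arrays are left of WT arrays, and Gfap and Aqp4, which have more than 1 probe, are not drawn here. Each point is 1 array, squares are the 2 arrays whose Cbx3 signal opposes the label, and open points are not well above background. Aldoc, S100b and Apoe are higher on the 4 KO arrays than on WT floating 1 and 3, and Aldh1l1 is high on KO floating 3 and WT floating 1.

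Of the metabolic enzymes, Aldoc, the brain form of the glycolytic aldolase (chromosome 11, bases 78323073 to 78327781), was higher in KO. Its level was 6.38, 7.55 and 6.11 on KO floating 1, 2 and 3, and 7.31 and 5.12 on KO adherent 1 and 2, against 3.62, 6.66 and 4.46 on WT floating 1, 2 and 3. The array labelled WT floating 2 lay inside the KO range and the one labelled KO adherent 2 below it. In the 6-array comparison the groups did not overlap, at 6.84 ± 0.70 (SD, n = 4) on the KO arrays and 4.04 ± 0.59 (SD, n = 2) on the WT arrays. Aldoc rose by 2.79 on the log2 scale (SE 0.48, limma adjusted p = 0.0211). Leaving out 1 array ended the call in 4 cases, with adjusted p = 0.107 (WT floating 1 left out), 0.0774 (WT floating 3), 0.0511 (KO floating 1) and 0.0685 (KO adherent 1). With labels as given, KO floating minus WT floating was 1.76 (SE 0.89, adjusted p = 0.813).

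Aldh1l1, the cytosolic enzyme that oxidises formyl-tetrahydrofolate (chromosome 6), did not follow the genotype. It had 4.49, 3.59 and 6.19 on KO floating 1, 2 and 3 and 3.34 and 3.70 on KO adherent 1 and 2, against 6.39, 4.48 and 4.37 on WT floating 1, 2 and 3. The 2 high arrays, KO floating 3 and WT floating 1, were the 2 with signal of the Y-linked genes; the part of that in the Aldh1l1 level was not tested. The 6-array difference was -0.98 (SE 0.92, adjusted p = 0.460) and became 0.03 without WT floating 1. Within slide rows it was -2.35 and 0.39.

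Apoe, the main lipid carrier secreted by astrocytes (chromosome 7), was printed on 10 spots per array. Its level was 7.84, 8.43 and 7.56 on KO floating 1, 2 and 3, and 8.18 and 6.07 on KO adherent 1 and 2, against 6.61, 7.81 and 6.73 on WT floating 1, 2 and 3. The lowest of all was the array labelled KO adherent 2, and the spot SD within an array (0.0187 to 0.0766) was far smaller than the spread between arrays. In the 6-array comparison Apoe rose by 1.33 (SE 0.26, adjusted p = 0.0266), at 8.0 ± 0.38 on the KO arrays (SD, n = 4) and 6.67 ± 0.08 on the WT arrays (SD, n = 2). The call was lost without WT floating 1 (adjusted p = 0.127), WT floating 3 (0.141), KO floating 1 (0.0653) or KO adherent 1 (0.0795). Over all 3 floating arrays a side it was 0.89 (SE 0.58, adjusted p = 0.813).

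Clu, the secreted chaperone and lipid carrier clusterin (chromosome 14), stayed between 1.37 and 2.05 on all 8 arrays. It had 1.52, 2.05 and 1.83 on KO floating 1, 2 and 3, 1.76 and 1.37 on KO adherent 1 and 2, and 1.99, 1.54 and 1.90 on WT floating 1, 2 and 3. The groups overlapped, and the 6-array difference was -0.15 (SE 0.17, adjusted p = 0.550).

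S100b, a calcium-binding protein of astrocytes and of maturing oligodendrocyte precursors (chromosome 10, bases 76253836 to 76261319), showed the smallest adjusted p of the members. It had 6.20, 6.69 and 6.46 on KO floating 1, 2 and 3 and 5.99 and 6.18 on KO adherent 1 and 2, against 5.00, 6.75 and 4.64 on WT floating 1, 2 and 3. All KO arrays, that labelled KO adherent 2 included, lay above WT floating 1 and 3, and the array labelled WT floating 2 was the highest of all. S100b rose by 1.51 in the 6-array comparison (SE 0.23, adjusted p = 0.0169), with 6.33 ± 0.31 (SD, n = 4) on the KO arrays and 4.82 ± 0.25 (SD, n = 2) on the WT arrays. The adjusted p was 0.0533 without WT floating 1 and 0.113 without WT floating 3, and stayed under 0.05 without any single KO array. Over all 3 floating arrays a side it was 0.99 (SE 0.51, adjusted p = 0.813).

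Gfap, the filament protein that defines mature astrocytes (chromosome 11, bases 102887336 to 102897200), had 3 probes, none far above background. Probe A_52_P52303 gave -4.42, -5.18 and -3.72 on KO floating 1, 2 and 3 and -4.66 and -4.05 on KO adherent 1 and 2. It gave -1.86, -5.06 and -2.42 on WT floating 1, 2 and 3. Only KO floating 3, WT floating 1 and WT floating 3 were well above background, and the last 2 were the highest. Probe A_55_P2157250, annotated to the other RefSeq transcript of Gfap, gave -5.67, -6.23 and -4.84 on KO floating 1, 2 and 3, -5.26 and -5.20 on KO adherent 1 and 2, and -2.83, -7.08 and -3.29 on WT floating 1, 2 and 3. It was well above background on WT floating 1 and 3 alone. Probe A_55_P2157245, annotated to the same transcript as A_52_P52303, ran from -6.72 to -4.36, at background on all 8 arrays.

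In the 6-array comparison Gfap fell by 2.35 on probe A_52_P52303 (SE 0.40, adjusted p = 0.0211), with -4.49 ± 0.61 (SD, n = 4) on the KO arrays and -2.14 ± 0.40 (SD, n = 2) on the WT arrays. With every probe tested, A_55_P2157250 differed by -2.44 (adjusted p = 0.0174). Since no KO array was well above background, its fold is given as an approximate bound, 2.40-fold lower in KO. Both probes entered the test only through the WT arrays, so the filter on dim probes favoured features of this kind that are high there. The call on A_52_P52303 was lost without WT floating 1 (adjusted p = 0.108), WT floating 3 (0.0881), KO floating 1 (0.0604) or KO adherent 1 (0.0718). The third probe differed by 0.40 between signals not above background. No Gfap probe passed the filter with labels as given, and the difference on A_52_P52303 was -1.32 (SE 0.81, adjusted p = 0.988 without the filter).

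**Figure D2:**
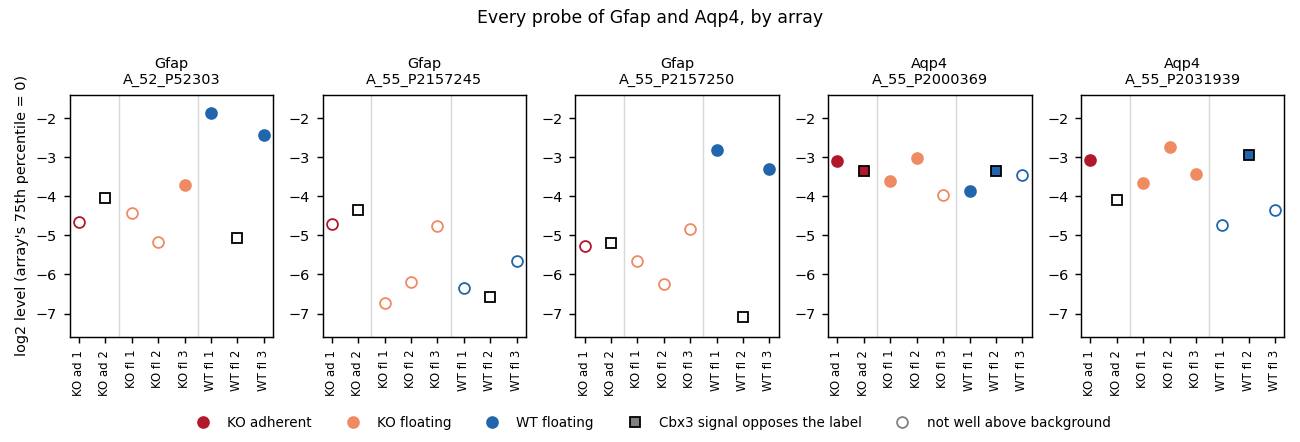
Log2 level (vertical axis, 75th percentile of the array at 0) of the 3 Gfap probes and the 2 Aqp4 probes on each of the 8 arrays (horizontal axis), with KO arrays left of WT arrays. Open points are not well above background and squares are arrays whose Cbx3 signal opposes the label. Probes A_52_P52303 and A_55_P2157250 of Gfap are highest on WT floating 1 and 3, while A_55_P2157245 is at background throughout.

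Among the membrane proteins, Aqp4, the water channel of astrocyte endfeet (chromosome 18), had 2 probes of the same transcript. Probe A_55_P2031939 gave -3.65, -2.73 and -3.42 on KO floating 1, 2 and 3 and -3.08 and -4.09 on KO adherent 1 and 2, against -4.73, -2.94 and -4.36 on WT floating 1, 2 and 3. WT floating 1 and 3 were the lowest and neither was well above background. In the 6-array comparison this probe rose by 1.32 (SE 0.28, adjusted p = 0.0326), as an approximate bound 1.5-fold higher in KO. It entered the test only through the KO arrays. Probe A_55_P2000369 had -3.62, -3.01 and -3.98 on KO floating 1, 2 and 3, -3.09 and -3.35 on KO adherent 1 and 2, and -3.85, -3.36 and -3.47 on WT floating 1, 2 and 3. Its groups overlapped, and it differed by 0.23 (SE 0.33), so the 2 probes did not agree on a change. The call was lost without any of WT floating 1 (0.158), WT floating 3 (0.586), KO floating 1 (0.0533), KO floating 3 (0.246) or KO adherent 1 (0.0920), given as adjusted p; without WT floating 3 or KO floating 3 the other probe was the brighter one tested, and the difference was 0.43 and 0.42. It was also lost under quantile normalization (0.0650) and normexp (0.129).

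Gja1, which encodes the main gap junction connexin of astrocytes (chromosome 10), had 1.09, 1.34 and 1.02 on KO floating 1, 2 and 3 and 0.95 and 0.61 on KO adherent 1 and 2, against 0.67, 1.32 and 0.47 on WT floating 1, 2 and 3. The 4 KO arrays lay above the 2 WT arrays without overlap. The 6-array difference of 0.53 (SE 0.16) did not pass the test (adjusted p = 0.0663). Among its 10 spots on WT floating 3, 1 spot lay at -0.21, which gave a spot SD of 0.25 there against at most 0.0761 elsewhere.

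Mlc1, a membrane protein of astrocyte junctions mutated in a human leukoencephalopathy with cysts (chromosome 15), had 7.96, 7.87 and 8.24 on KO floating 1, 2 and 3 and 7.93 and 7.61 on KO adherent 1 and 2, against 7.56, 7.88 and 7.62 on WT floating 1, 2 and 3. The 6-array groups did not overlap, but the difference of 0.41 (SE 0.15, adjusted p = 0.102) did not pass. Under quantile normalization it was 0.87 and passed (adjusted p = 0.0177).

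Sparcl1, the secreted matrix protein hevin that takes part in synapse formation (chromosome 5), varied little. It had 9.37, 8.98 and 9.56 on KO floating 1, 2 and 3 and 9.38 and 9.20 on KO adherent 1 and 2, against 9.07, 8.97 and 9.24 on WT floating 1, 2 and 3. The groups overlapped, and the 6-array difference was 0.17 (SE 0.19, adjusted p = 0.540).

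Counted together in the 6-array comparison, 4 members rose (Aldoc, S100b, Apoe and Aqp4), 1 fell (Gfap) and 5 did not pass. Over all 21463 features tested, 17.3% passed, 8.99% higher and 8.35% lower. Leaving aside Gfap and Aqp4, which reached the test through 1 group only, 8 members were above background on all 6 arrays. Of these, 3 rose and none fell, where 6.8% and 8.66% of the 18874 such features rose and fell. The groups did not overlap for 7 of 10 members, as for 53.4% of all features. The median difference was 0.47 over the members and -0.07 over all features. Kept apart from the adherent array in the same 6 arrays, KO floating against WT floating called 0 of 10 members, with 0.177% of 25962 features called; the smallest adjusted p of a member was 0.0708, that of S100b.

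The slide held the arrays in 2 rows, each with arrays of both genotypes. Within the rows, the 6-array difference of the 3 clearest rising genes was 3.34 and 2.25 for Aldoc, 1.44 and 1.58 for S100b, and 1.53 and 1.14 for Apoe. In each row 2 KO arrays stood against 1 WT array. Since the 6-array groups of these 3 genes did not overlap, their direction within the rows was fixed beforehand and adds no support. The within-row difference of Gfap was -2.94 and -1.77. Its 6-array groups did not overlap either, so this direction too was fixed beforehand.

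**Figure D3:**
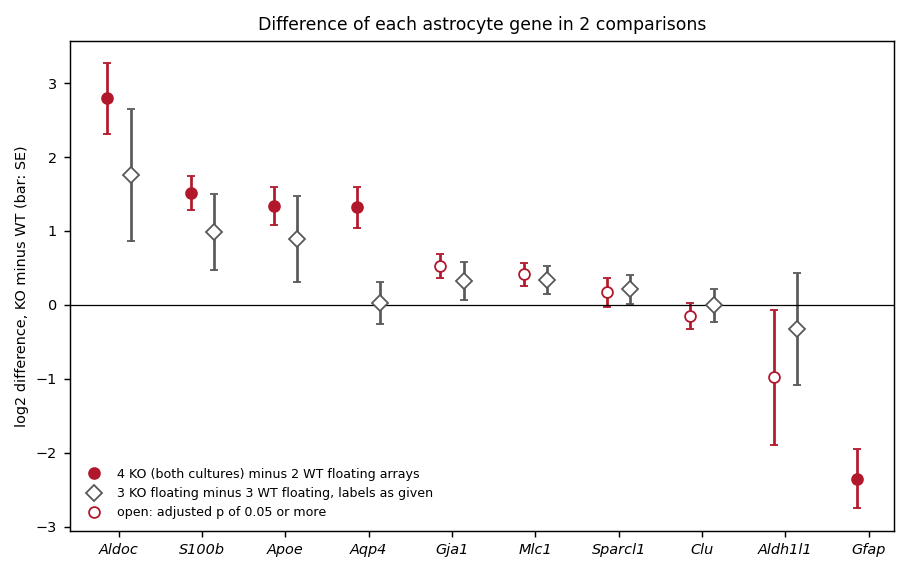
Log2 difference, KO minus WT, of each member (vertical axis, bars are standard errors) in the 6-array comparison of 4 KO with 2 WT arrays (circles) and in KO floating against WT floating with labels as given (diamonds). Filled symbols passed an adjusted p of 0.05. Aldoc reaches 2.79 in the 6-array comparison and 1.76 with labels as given, and Gfap lies at -2.35 with no tested value with labels as given.

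With labels as given, KO floating against WT floating called 0 of the 9 members tested. Of 22647 features, 1 was called (0.00442%; 0 with the replicate number as a block), and 391 had an unadjusted p under 0.05. Without a test, 7 of the 9 were higher in KO and 2 lower, with a median of 0.33 against -0.03 over all features, and no member's groups were free of overlap, as 8.4% of features were.

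KO adherent against KO floating compared the cultures by their labels. The array labelled KO adherent 2 had Cbx3 at the level of the other genotype (5.91), so culture surface and Cbx3 level are mixed in this comparison. No member passed limma's test, as no feature did (0% of 22647; 253 had an unadjusted p under 0.05). Of the 9 members tested, 1 was higher and 8 were lower in adherent culture, with a median of -0.37 against 0.06 over all features. The differences were -1.24 for Aldh1l1 (SE 0.85), -0.81 for Apoe (SE 0.65), -0.47 for Aldoc (SE 1.0), and -0.37 for both S100b (SE 0.57) and Gja1 (SE 0.29). S100b and Gja1 did not overlap between the cultures, as was so for 12.8% of all features. Without the array labelled KO adherent 2, which left 1 adherent array assumed to vary like the others, Aldoc was 0.63, Apoe 0.24 and Sparcl1 0.08 higher in adherent culture, so these 3 signs rest on that array.

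The 2 arrays set aside were compared with the others gene by gene. The array labelled WT floating 2 was nearer to the mean of the 4 KO arrays for 9 of 10 members, all but Sparcl1. The array labelled KO adherent 2 was nearer to the mean of the 2 WT arrays for 6 members (Aldoc, Apoe, Aqp4, Gja1, Mlc1 and Sparcl1) and nearer to the KO mean for Gfap, S100b, Aldh1l1 and Clu.

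The other astrocyte genes gave a wider view of the same cells. Of a list of 37, 36 were tested in the 6-array comparison, where 13 rose, 1 fell and 22 did not pass (8.99% of all features rose and 8.35% fell), with a median of 0.55 against -0.07 over all features. Of the 33 above background on all 6 arrays, 11 rose and 1 fell, against 6.8% and 8.66% of all such features. Without 1 array, the number that rose was 4 (without WT floating 1), 1 (WT floating 3), 4 (KO floating 1), 15 (KO floating 3), 16 (KO floating 2) or 5 (KO adherent 1), while the features called among all ranged from 462 to 5372. None of 37 passed in either comparison with labels as given.

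The zinc transporter gene Slc39a12 had 2.34, 2.52 and 2.34 on KO floating 1, 2 and 3 and 2.22 on KO adherent 1, against -0.44 and -1.93 on the 2 WT arrays. The KO arrays lay above both WT arrays. Slc39a12 rose by 3.54 (SE 0.39, adjusted p = 0.00919), and the call was kept without each of the 6 arrays. The adhesion molecule Vcam1 rose by 2.54 (SE 0.46, adjusted p = 0.0234). Dio2, the enzyme that activates thyroid hormone, was not well above background on either WT array. As an approximate bound it was 2.97-fold higher in KO (adjusted p = 0.0139). It entered the test only through the KO arrays, where it is high.

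Outside the rule for named genes, and chosen after their values were seen, the glutamate transporters also rose, Slc1a2 by 1.79 (SE 0.23, adjusted p = 0.0120) and Slc1a3 by 1.0 (SE 0.21, adjusted p = 0.0303). The potassium channel Kcnj10 rose by 2.04 (SE 0.42, adjusted p = 0.0310). The member of the list that fell was Cd44, a hyaluronan receptor, at -0.78 (SE 0.16, adjusted p = 0.0298), and of its 2 other probes with signal 1 had the same sign. Without WT floating 3 the calls of Vcam1, Dio2, Slc1a2, Slc1a3, Kcnj10 and Cd44 were all lost, with adjusted p from 0.0759 for Dio2 to 0.199 for Cd44.

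Genes that act on Gfap had calls in both directions. Of 38 regulators of the cytokine, Notch, bone morphogenetic and chromatin pathways, 35 were tested, 5 rose, 3 fell and 27 did not pass. Over all features 8.99% rose and 8.35% fell, so falls were about as frequent in the list as elsewhere. The list median of -0.04 was close to that of all features (-0.07). Hes5, a target of Notch that holds cells as precursors, had 8.06, 8.27 and 7.48 on KO floating 1, 2 and 3 and 8.57 on KO adherent 1, against 4.64 and 5.11 on the 2 WT arrays. It rose by 3.22 (SE 0.32, adjusted p = 0.00762), a call kept without each of the 6 arrays. Among cytokine receptors, Lifr, the receptor for leukaemia inhibitory factor, rose by 1.93 (SE 0.25, adjusted p = 0.0126).

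Osmr, the receptor for the related cytokine oncostatin M, had -2.75, -4.09 and -2.27 on KO floating 1, 2 and 3 and -4.14 on KO adherent 1, against -0.14 and -0.57 on the 2 WT arrays. It fell by 2.96 (SE 0.58, adjusted p = 0.0279, or 0.0513 with the replicate block). Above background on 3 of 4 KO arrays, it entered the test only through the WT arrays. Bmp2, a bone morphogenetic ligand, fell by 1.72 (SE 0.32, adjusted p = 0.0240). Named after its value was seen, Stat3, the factor that carries these cytokine signals to the Gfap gene, had 5.02, 4.65 and 5.06 on KO floating 1, 2 and 3 and 4.82 on KO adherent 1, against 5.93 and 5.74 on the 2 WT arrays. Stat3 fell by 0.95 (SE 0.17, adjusted p = 0.0219). The remaining regulators that passed, also outside the rule, were higher in KO. Nfix rose by 0.96 (SE 0.16, adjusted p = 0.0195), Bmpr1b by 0.68 (SE 0.18, adjusted p = 0.0493) and Mbd1 by 0.67 (SE 0.17, adjusted p = 0.0466). Their calls under other settings are not given here. The part of any regulator in the Gfap level was not tested. Without WT floating 1, Lifr had an adjusted p of 0.050 and Osmr, Bmp2 and Stat3 of 0.132, 0.0982 and 0.119. Without WT floating 3 the values of Lifr, Osmr, Bmp2 and Stat3 were 0.0806, 0.134, 0.151 and 0.107. The list then had 1 rise in either case and no fall, and it had 2 rises and 1 fall without KO floating 1 and 2 rises and no fall without KO adherent 1.

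Genes induced in reactive astrocytes, which respond to injury and inflammation, mostly lay lower in KO. Of 28 in the list, 20 were tested, 12 fell, none rose and 8 did not pass, with a median of -1.5, while 8.35% of all features fell and 8.99% rose. Of the 16 above background on all 6 arrays, 10 fell, as did 8.66% of all such features. Cd44 and Osmr are shared with the lists above, and Vim and Nes with that of neural stem cells. Tm4sf1, a membrane protein, had -0.94, -2.91 and 0.58 on KO floating 1, 2 and 3 and -2.54 on KO adherent 1, against 4.81 and 4.07 on the 2 WT arrays. It fell by 5.89 (SE 0.98, adjusted p = 0.0197). Timp1, an inhibitor of matrix proteases, fell by 4.30 (SE 0.66, adjusted p = 0.0169), and Cd109, a membrane protein that binds transforming growth factor beta, fell by 3.81 (SE 0.90, adjusted p = 0.0389).

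On the arrays set aside, Timp1 had 4.49 on the one labelled KO adherent 2 and -0.14 on the one labelled WT floating 2, each at the level of the other genotype. The filament genes Vim and Nes, named after their values were seen, fell by less, Vim by 0.68 (SE 0.16, adjusted p = 0.0365, or 0.0522 with the replicate block) and Nes by 0.80 (SE 0.21, adjusted p = 0.0495). Both were lost under quantile normalization, where they differed by -0.17 and -0.58. The number of the list that fell was 0 when WT floating 1 was left out, 1 for WT floating 3, 3 for KO floating 1 and 1 for KO adherent 1; no member of it passed with labels as given in either comparison.

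**Figure D4:**
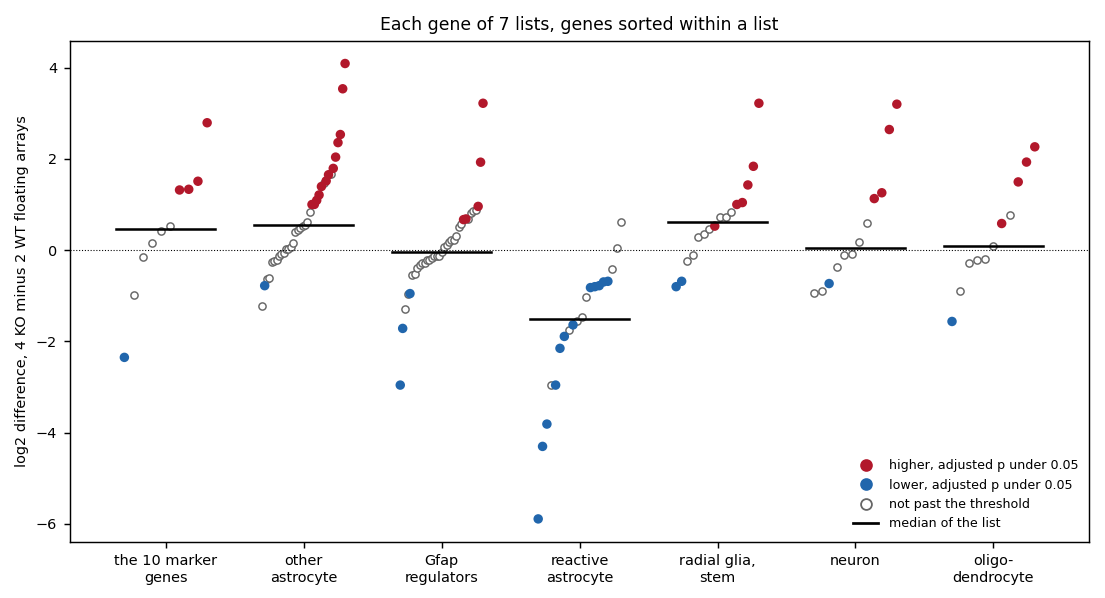
Log2 difference (vertical axis) between the 4 KO arrays and the 2 WT arrays for each gene of 7 lists (horizontal axis, genes sorted within a list). Red points are higher and blue points lower with an adjusted p under 0.05, open points did not pass, and black bars mark list medians. The bar of the other astrocyte genes lies at 0.55 and that of the reactive genes at -1.5.

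Genes of other cell types were compared in the same 6 arrays, and the part of these cell types in the results above was not tested. Neural stem cell and radial glia genes, the labelled cell type, were above background on all 8 arrays for 16 of 17 genes. Of 16 tested, 6 rose and 2 fell (Vim and Nes), with a median of 0.63, while 8.99% of all features rose and 8.35% fell. Besides Hes5, rises were found for Lfng, a modifier of Notch (1.43, SE 0.25, adjusted p = 0.0218), and for Nr2e1, a receptor that maintains stem cells (1.04, SE 0.20, adjusted p = 0.0273). The summed signal of this list, in multiples of the 75th percentile, was 746 to 1118 on the 4 KO arrays with 16 to 17 of 17 genes above background, against 575 and 588 with 16 and 17 genes on the 2 WT arrays.

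Of 14 oligodendrocyte genes, 11 were tested, 4 rose and 1 fell (8.99% of all features rose and 8.35% fell). The median was 0.10, 6 being higher and 5 lower. Olig1, a lineage factor, rose by 1.93 (SE 0.22, adjusted p = 0.00969) and Pdgfra, the precursor growth factor receptor, by 1.5 (SE 0.39, adjusted p = 0.0472), while the myelin gene Mbp fell by 1.56 (SE 0.35, adjusted p = 0.0363). The summed signal of the list was 147 to 209 on the 4 KO arrays, with 11 to 13 genes above background, against 62.8 and 65.3 with 11 genes on each of the 2 WT arrays. That sum is of linear levels, and its largest part is Olig1, the brightest gene tested from the list, so it mostly follows that gene. Olig1 had 6.61, 7.26 and 6.80 on KO floating 1, 2 and 3 and 6.60 on KO adherent 1, against 4.97 and 4.80 on the 2 WT arrays.

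Of 18 neuronal genes, 12 were tested, 4 rose and 1 fell (8.99% of all features rose and 8.35% fell), with a median of 0.05. Rbfox3, a splicing factor of mature neurons, rose by 3.20 (SE 0.72, adjusted p = 0.0363), and Tubb3, a neuronal tubulin, by 1.26 (SE 0.16, adjusted p = 0.0126). Dcx, of migrating neurons, was higher by an approximate bound of 2.75-fold (adjusted p = 0.0427), although its only other probe with signal had the opposite sign. Rbfox3, above background on 1 of 2 WT arrays, and Dcx, on neither, entered the test only through the KO arrays. Of the 10 genes above background on all 6 arrays, 2 rose and 1 fell, against 6.8% and 8.66% of all such features. Ncam1, an adhesion molecule, was the one that fell (-0.73, SE 0.15, adjusted p = 0.0284). The summed signal was 169 to 195 on the 4 KO arrays, with 12 to 13 genes above background, against 137 and 140 with 10 and 11 genes on the 2 WT arrays, while Stmn2, Nefl, Nefm, Gad2 and Dlx5 stayed at background throughout.

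Of the cell types from outside the neural lineage, some markers were detected and others not. Of 13 microglial genes with a probe, 5 to 6 were above background on the 4 KO arrays and 3 and 5 on the 2 WT arrays, their summed signal was 16.5 to 27.7 against 14.502 and 15.1, and Aif1, Cx3cr1, Tyrobp, C1qa, C1qc and Ptprc stayed at background on all 8 arrays. Itgam (3.53 to 4.67), an integrin of myeloid cells, and Csf1r (0.11 to 1.21), their growth factor receptor, were above background on all 8. The endothelial genes Cdh5, Cldn5 and Tie1 and the mural genes Pdgfrb, Rgs5, Lum and Abcc9 were at background too, while the vascular growth factor receptors Kdr (2.98 to 3.51) and Flt1 (0.49 to 3.43) were above it on all 8 arrays. Summed endothelial signal was 12.6 to 14.2 on the 4 KO arrays, with 4 to 6 of 10 genes above background, against 12.9 and 17.0 with 3 genes on each of the 2 WT arrays. Summed mural signal was 6.77 to 8.67 on the 4 KO arrays, with 1 to 6 of 11 genes, against 5.37 and 6.35 with 5 and 2 genes on the 2 WT arrays. Only 4 microglial and 4 endothelial genes were tested, and none passed, while 17.3% of all features did. Of the mural genes 2 were tested. Cspg4, also of oligodendrocyte precursors, rose by 0.58 (SE 0.16, adjusted p = 0.0495). Acta2, a smooth muscle actin, had -2.32, -4.75 and -2.39 on KO floating 1, 2 and 3 and -2.71 on KO adherent 1, against -0.58 and -0.34 on the 2 WT arrays, without overlap, and its difference of -2.58 did not pass (SE 0.70, adjusted p = 0.0513). These 2 probes and Itgam, Csf1r, Kdr and Flt1 were chosen after their values were seen. Of 10 ependymal genes 4 were tested, and the cilia genes Rsph1 and Tekt1 differed by -2.24 (SE 0.51, adjusted p = 0.0364) and 1.16 (SE 0.27, adjusted p = 0.0388), both lost with the replicate block (0.0541 and 0.0647). Rsph1 was above background on 2 of 4 KO arrays and Tekt1 on 1 of 2 WT arrays, so each entered the test only through the group where it is high. The summed ependymal signal was 21.7 to 36.1 on the 4 KO arrays, with 4 to 5 genes above background, against 20.0 and 21.7 with 3 and 5 genes on the 2 WT arrays. Without WT floating 3, the calls of the genes named here from the lists of other cell types were lost, except that of Hes5. The stem cell list kept 1 rise without any of WT floating 1, KO floating 1 or KO adherent 1, and the oligodendrocyte list likewise 1, while the neuronal list had 1, 2 and 1.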

How the data were processed

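Gene expression was measured on 8 single-colour Agilent arrays of 1 slide. The deposited scanner files hold spot intensity on a linear scale, background-subtracted by Agilent Feature Extraction (version 11.0.1.1 per the file headers, 9.1.3.1 per the submitters' processing notes). The other columns used, per the file headers, are flags for spots well above background, saturated or outlying. The deposited intensity table of the authors matched the processed signal within 0.01% for 99.2% of the probes of each array.

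From the processed signal, log2 values minus the 75th percentile of each array were computed; outlier spots were left out (200 probes then lacked a value on some array) and repeated spots averaged. A probe entered a test if 1 or more groups had it well above background throughout and it had a value on all arrays of the fit; genes with several such probes were represented by the brightest. Of 55681 probes, 27235 matched a gene in RefSeq (GRCm38.p6), which also gave promoter windows and gene positions. Where the dimmer group had a gene at background throughout, its fold is an approximate bound. For each dim array, the dimmest well-detected signal of any probe replaced the gene's own if higher. The mean of the brighter group was set against the mean of these. Some probes above that dimmest signal were still not well above background, so the limit of a given probe can lie higher.

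Testing used limma 3.58.1 under R 4.3.3 over all features (lmFit, eBayes, two-sided, Benjamini-Hochberg adjusted p under 0.05), with labels as given in 1 fit of 3 groups, and over 6 arrays in 2 groups. The fits were tested on simulated data. Members, lists and the 6-array comparison were chosen with earlier results of these data known. Named were Cbx3, each member, every probe of members with several, and up to 4 passing genes of each list with the largest difference; others are marked, and some that the rule names are not reported here.

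Same-numbered floating arrays deviated together (r = 0.103, 0.590 and 0.335 across genes), but so did WT floating 1 with KO floating 3 (0.346). By the rule of correlations over 0.1 the numbers of the floating arrays count as pairs, and a fit with the replicate block was run. KO floating 1 also deviated together with WT floating 3 (0.205), while same-numbered adherent and floating arrays did not deviate together (-0.0544 and -0.285). Deviations were taken from label means that include the 2 arrays whose Cbx3 signal opposes the label, so they are no clear measure of pairing. Other settings were quantile normalization, normexp (offset 50, on the median spot signal), the authors' table, other probe filters, every probe, a trended robust spread, the slide row as a block, only the groups compared and leaving out each array.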

Additional observations from a re-analysis of the deposited data

Results flagged for a closer look

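Among the 4 KO arrays of the 6-array comparison, 148 probes of the members and lists were examined for 1 array far from the other 3, by the gap to the nearest array over the whole range (Dixon's test). Chance alone marks about 1 probe in 20, and 10 were marked, none of them a member. KO floating 2 stood apart for Hes1 (1.46), Id3 (4.03), Sox9 (2.83), Fcer1g (-3.15) and Acta2 (-4.75). The array labelled WT floating 2 lay low for them too, at 1.78, 3.78, 2.81, -2.96 and -4.03. For each of these genes, KO floating 2 and WT floating 2 were the lowest of all arrays. The same held for Socs3 (-0.45 and -0.92) and Ptgs2 (-6.15 and -6.39), while other list genes were not counted. The cause of these shared low levels was not tested. KO floating 3 stood apart for Scara3 (1.44), Nkx2-2 (-1.55), Olig2 (4.12) and Gbp2 (-0.93), and KO floating 1 for Id4 (-0.26). All values are log2 levels relative to the 75th percentile of the array.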

How the results depend on the processing

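In the 6-array comparison 3722 features passed, against 179 with no filter on dim probes and 46 with the cultures kept apart; leaving out 1 array gave 462 to 5372 (903 without WT floating 1, 635 without WT floating 3, 697 without KO floating 1, 462 without KO adherent 1). The calls of Aldoc, S100b, Apoe, Gfap and Aqp4 were lost with no filter and with the cultures kept apart. The replicate block gave 4128 and changed no member's call, but among named list genes Osmr (adjusted p = 0.0513), Vim (0.0522), Rsph1 (0.0541) and Tekt1 (0.0647) lost theirs. Of the named list genes, quantile normalization ended the calls of Ncam1, Dcx, Pdgfra, Vim and Nes, normexp those of Dcx, Rbfox3, Pdgfra, Tekt1 and Nes, the authors' table that of Nes, and the slide-row block those of Vim, Mbp, Pdgfra, Rsph1 and Tekt1; with no filter Hes5 and Slc39a12 alone passed, and with the cultures kept apart none did. Aldh1l1 ran from -1.99 to 0.0267 when arrays were left out.

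With labels as given, KO floating against WT floating called 1 feature. It called 0 with normexp, no filter, the filter on every array, a trended robust spread, the replicate block, the slide-row block and only the groups compared, 46 without the 2 arrays, and 0 to 3 when arrays were left out. Clu turned to 0.0628 under quantile normalization and 0.0086 under normexp, and Aqp4 to -0.0760 under quantile normalization. When arrays were left out, Aqp4 ran from -0.236 to 0.246, Aldh1l1 from -1.04 to 0.326 and Clu from -0.141 to 0.135.

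KO adherent against KO floating called 0 features, 7 under quantile normalization and 0 to 6 when arrays were left out. Sparcl1 turned to 0.0866 with the replicate block, S100b to 0.0352 and Aldoc to 0.0486 with the slide-row block, Aqp4 to -0.314 with only the groups compared, and Aldoc, Apoe and Sparcl1 to 0.629, 0.243 and 0.0776 without the 2 arrays. When arrays were left out, Aldoc ran from -1.56 to 0.629, Apoe from -1.87 to 0.243 and Sparcl1 from -0.176 to 0.115. The cause of these shifts was not tested. Signal close to background limits Gfap and Aqp4, and the 6-array comparison rests on 2 WT arrays.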
